A study of Mus musculus with 3 samples.

Results

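The adult hemoglobin genes of the mouse, Hbb-bs and Hbb-bt for the beta chains and Hba-a1 and Hba-a2 for the alpha chains, were followed through red cell maturation and into cells with low levels of other red cell markers. These 4 genes were matched by symbol among the 32285 genes of a single-cell table of mouse cochlea. C57BL/6J mice were in 1 of 3 groups: control (no noise), HHL (110 dB for 2 h) and NIHL (115 dB for 4 h on 3 days), with 6 animals named for each. Tissue came from the cochlea 6 h after noise ended, cells were put through 10x Genomics 3′ gene expression, and each group has 1 library, with no replicate. The table holds 3 libraries, told apart by a barcode suffix that matches no label, so libraries 1, 2 and 3 are in no group and nothing here compares noise with control. With 1 sample each there is also no test: intervals are exact 95% intervals (Poisson for sums, Clopper-Pearson for shares) and cover counting error only. Age was not used.

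Hemoglobin is a tetramer of 2 alpha and 2 beta chains around heme, and nucleated red cell precursors (erythroblasts) fill with its mRNA as they condense their nucleus and switch off other genes. Adult beta genes sit in one cluster under a distant locus control region, with the embryonic genes Hbb-y, Hbb-bh1 and Hbb-bh2, and the alpha genes sit in another with embryonic Hba-x and the theta genes Hbq1a and Hbq1b. Marrow-bearing bone surrounds the cochlea. Red cells that burst during dissociation release hemoglobin mRNA, which can enter any droplet as free RNA. A UMI (unique molecular identifier) counts 1 captured mRNA molecule.

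The promoters show what the copies share. For each gene the 150 bases before the start of transcription are given from RefSeq, on build GRCm38.p6, which is not the build of the counts (GRCm39). All 4 members matched the promoter table. Hbb-bs lies at chr7:103827929-103828078 and Hbb-bt at chr7:103813924-103814073, both on the minus strand, and Hba-a1 lies at chr11:32283522-32283671 and Hba-a2 at chr11:32296342-32296491, both on the plus strand. Capitals mark CACCC (the core of the box bound by Klf1), the CCAAT box, the TATA-type words ATATAA or ATAAA, which overlap in Hbb-bt, on either strand.
Hbb-bs: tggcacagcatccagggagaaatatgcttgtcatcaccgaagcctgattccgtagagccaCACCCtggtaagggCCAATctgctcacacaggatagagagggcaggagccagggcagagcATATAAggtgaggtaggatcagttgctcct
Hbb-bt: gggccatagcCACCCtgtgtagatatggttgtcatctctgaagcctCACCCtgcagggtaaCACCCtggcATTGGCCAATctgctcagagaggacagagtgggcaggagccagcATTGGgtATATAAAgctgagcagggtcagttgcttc
Hba-a1: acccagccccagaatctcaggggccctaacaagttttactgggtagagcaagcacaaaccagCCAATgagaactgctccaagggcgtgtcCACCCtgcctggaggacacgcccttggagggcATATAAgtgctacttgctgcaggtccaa
Hba-a2: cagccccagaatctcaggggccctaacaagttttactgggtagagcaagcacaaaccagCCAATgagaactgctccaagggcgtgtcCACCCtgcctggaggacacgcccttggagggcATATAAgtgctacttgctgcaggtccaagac

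CACCC was present in the windows of all 4 members and in 37.4% of 32851 RefSeq promoter windows of the same length. The same 4 held CCAAT, which 24.5% of windows held, and ATATAA, which was in 5.35%. Only 1 member held ATAAA, present in 24.1% of windows. GATAA, the core bound by Gata1, was in 0 of the 4 and in 13.3% of windows. Hbb-bt held CACCC at 3 places and Hbb-bs at 1. The pair of alpha windows had 147 identical bases and 0 mismatches, and differed only by a shift of 3 bases at each end, while the beta windows were 73.7% identical.

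This similarity limits what 3′ reads can tell apart. In GENCODE M21 transcripts the coding sequences of Hbb-bs and Hbb-bt differed at 1 of 444 bases and those of Hba-a1 and Hba-a2 at 1 of 429. The 3′ untranslated regions of the beta pair were 70.4% identical, which separates them. For the alpha pair all 74 bases annotated for Hba-a1 were found in the 90 of Hba-a2, with 0 mismatches. Reads in the shared alpha sequence could be dropped or split, so each value that sets Hba-a1 against Hba-a2 is uncertain, although the sum of both is less so.

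After filters of at least 500 UMIs, at least 200 genes and at most 20% mitochondrial UMIs, 16883, 9602 and 10703 barcodes were kept in libraries 1, 2 and 3, with medians of 5464, 6293.5 and 8098 UMIs. Fewer than 0.5% of the barcodes of the smaller library were shared by any pair of libraries (46, 53 and 31 barcodes), and called doublets numbered 951, 450 and 506. Barcodes were called erythroid from 12 markers that exclude hemoglobin: 6 early (Klf1, Gata1, Ermap, Rhag, Epor, Car1) and 6 late (among them Alas2, Slc4a1, Tspo2 and Trim10). At least 4 markers and 10 marker UMIs per 10000 other UMIs gave 185, 2003 and 1790 erythroid barcodes, which was 1.10%, 20.9% and 16.7% of the kept ones. Stages follow the late list's share of marker UMIs: early below 50%, middle, and late from 80%. They held 35, 100 and 50 barcodes in library 1, 431, 559 and 1013 in library 2, and 717, 419 and 654 in library 3. Another 12, 42 and 60 barcodes had high erythroid markers with more markers of another type, and 37, 231 and 189 had too few markers, and both sets were kept out of the erythroid and non-erythroid groups. Hair cell markers gated 15, 8 and 0 barcodes, so the table is mainly blood and marrow cells with a smaller part of cochlear tissue such as fibrocytes (51, 68 and 70 barcodes).

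The members took 0.209%, 6.48% and 3.63% of all kept UMIs in libraries 1, 2 and 3. Erythroid barcodes held 80.6%, 92.3% and 91.5% of the member UMIs, and non-erythroid barcodes held 7.73%, 2.89% and 3.77%. Hbb-bs was the most abundant member in every library, with 126872, 2847308 and 2544946 UMIs in kept barcodes. Hba-a2 had the fewest, with 32579, 842200 and 759838.

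Adult hemoglobin went from a small to a leading part of the UMIs across the stages. Early erythroid barcodes gave the members 2.25% of their summed UMIs in library 1, 0.916% in library 2 and 0.929% in library 3. In middle barcodes the shares were 10.0%, 16.9% and 10.1%, and in late barcodes 37.4% (37.2 to 37.6), 50.8% (50.8 to 50.9) and 66.0% (65.9 to 66.0). The order early, middle, late was the same in the 3 libraries, which lay farther apart in late barcodes than their counting intervals reach.

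Single barcodes spread widely within a stage. The median late barcode had 34.9%, 56.1% and 84.4% of its UMIs from the members, with quartiles of 19.0 and 58.1, 41.1 and 75.2, and 67.2 and 86.7, and the highest reached 88.7%, 93.5% and 91.4%. Library 3 therefore had most of its late barcodes near the top of the range, and library 1 had few there. The number of member UMIs per barcode was higher too, with medians of 315, 822.5 and 1497 in early, middle and late barcodes of library 1, 158, 2311 and 3985 in library 2, and 97, 1557 and 5929.5 in library 3. At the same time the median UMIs of a whole barcode were lower late than early: 4024.5 against 16648, 6813 against 38776, and 7604 against 35158. Both the gain of hemoglobin UMIs and the loss of other UMIs thus enter the percentage. Barcodes in which the members made up at least 50% of UMIs numbered 19, 689 and 573, of which 16, 625 and 544 were late, and their median gene counts were 475, 718 and 514.

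**Figure D1:**
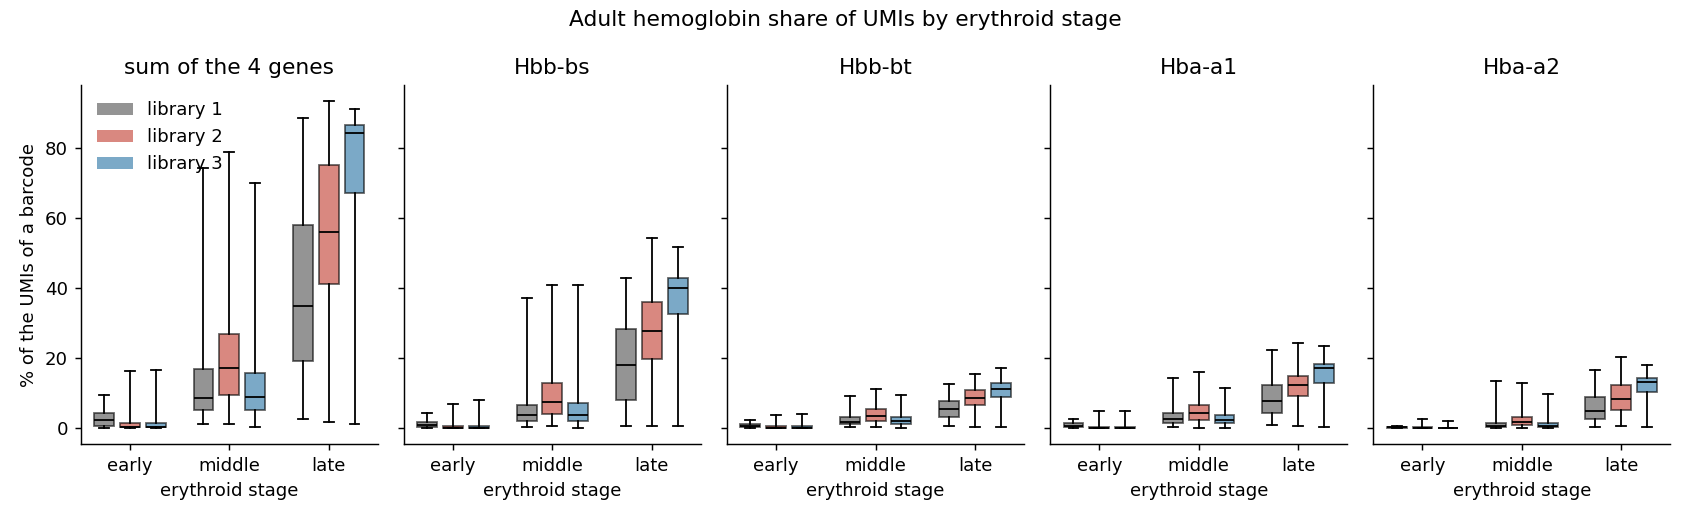
Share of a barcode's UMIs (%, y axis) from all 4 adult hemoglobin genes together and from each gene, by erythroid stage (x axis) and library (colour). Boxes are quartiles with the median, and whiskers are the lowest and highest barcode. The summed share in late barcodes has medians of 34.9%, 56.1% and 84.4% in libraries 1, 2 and 3, and Hbb-bs takes the largest part in each.

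Each gene was higher in late than in early barcodes. Hbb-bs, the major adult beta gene of this strain, was at 9161, 3552 and 3866 UMIs per 1000000 UMIs (CPM) in early barcodes of libraries 1, 2 and 3, and at 180215, 247382 and 323160 CPM in late ones. Hbb-bt, the other adult beta gene, was at 5605, 2322 and 2359 CPM early and at 57245.9, 78457 and 95791.8 CPM late. Hba-a1, an alpha gene, was at 6355, 2284 and 2315 CPM early and at 81641.5, 106427 and 135959 CPM late. Its neighbour Hba-a2 was the lowest early, at 1397, 1005 and 752 CPM, and was at 54445.7, 76028.4 and 104841 CPM late. Early levels were highest in library 1 for all 4 genes and late levels were highest in library 3. The stages were not matched in maturity across libraries. The late list gave 33.3%, 19.1% and 23.0% of marker UMIs in early barcodes, and 89.4%, 88.8% and 95.5% in late ones. The part of this in the order of the libraries was not tested.

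Late over early CPM ratios were 19.7, 69.7 and 83.6 for Hbb-bs, 10.2, 33.8 and 40.6 for Hbb-bt, 12.8, 46.6 and 58.7 for Hba-a1, and 39.0, 75.6 and 139 for Hba-a2. All 4 members passed 2-fold in each library, where 7.52%, 13.7% and 10.9% of the genes with at least 50 summed UMIs did so. Hba-a2 was the 5th, 5th and 2nd highest ratio among 2567, 10220 and 10558 genes, Hbb-bs the 15th, 6th and 6th, and Hbb-bt the 26th, 21st and 35th. Because hemoglobin takes so much of a late barcode, the median ratio over all genes was 0.504, 0.463 and 0.305, a log2 shift of -0.99, -1.11 and -1.71. Per UMI of the other genes those medians were 0.786, 0.933 and 0.888, and the summed member ratio was 25.9, 112 and 207 in place of 16.6, 55.5 and 71.0. The ratio in library 1 rests on 35 early barcodes, and the unlike maturity of the stages enters the comparison of ratios between libraries. Early levels of Hba-a2 were only 1.61 and 2.41 times its non-erythroid level in libraries 2 and 3, and those of Hbb-bs 2.72 and 4.12 times. With the non-erythroid level subtracted from both stages, the late over early ratios of Hba-a2 were 39.8, 197 and 237, and those of Hbb-bs 19.8, 110 and 110.1.

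The balance between the beta genes moved with stage. Hbb-bt gave 38.0% (37.0 to 38.9) of beta UMIs in early barcodes of library 1, 39.5% (39.2 to 39.8) in library 2 and 37.9% (37.7 to 38.1) in library 3. In middle barcodes it gave 31.3%, 30.3% and 31.1%, and in late ones 24.1% (23.8 to 24.4), 24.1% (24.0 to 24.1) and 22.9% (22.8 to 22.9). The early, middle and late intervals did not overlap in any library, and within a stage the libraries lay closer together than the stages did. Medians over single barcodes with at least 50 beta and 50 alpha UMIs gave the same order: 39.6%, 30.9% and 23.7% in library 1, 42.1%, 30.7% and 24.3% in library 2, and 41.2%, 32.2% and 22.8% in library 3. Among barcodes under the gene minimum with at least 50% hemoglobin (23, 113 and 9 barcodes, with medians of 135, 156 and 181 genes), Hbb-bt was at 22.2%, 17.2% and 17.6%.

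The alpha pair moved the other way, within the limit its shared sequence sets. Hba-a2 gave 18.0% (17.0 to 19.1) of alpha UMIs in early barcodes of library 1, 23.2% in middle ones and 40.01% (39.5 to 40.5) in late ones. Library 3 had 24.5%, 26.3% and 43.5%. In library 2 early and middle were alike, at 30.6% and 30.5%, and late was 41.7%. Medians over single barcodes were 16.9%, 20.8% and 42.4% in library 1, 28.0%, 29.2% and 42.4% in library 2, and 21.1%, 23.5% and 43.8% in library 3. Late barcodes lay closer together across the libraries than early ones did. Early Hba-a2 was 48.4, 1.61 and 2.41 times its non-erythroid level in libraries 1, 2 and 3. In non-erythroid barcodes Hba-a2 gave 45.1%, 53.7% and 46.1% of alpha UMIs. The part of that background in the early shares, and in their spread across libraries, was not tested.

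Beta UMIs outnumbered alpha UMIs at all stages. The ratio of summed beta to alpha UMIs was 1.90, 1.89 and 1.74 in early, middle and late barcodes of library 1, 1.79, 1.90 and 1.79 in library 2, and 2.03, 2.07 and 1.74 in library 3. The late values of the libraries thus lay between 1.74 and 1.79. Reads lost in the near-identical alpha copies would lower the alpha sum, so this ratio is not a measure of chain number.

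**Figure D2:**
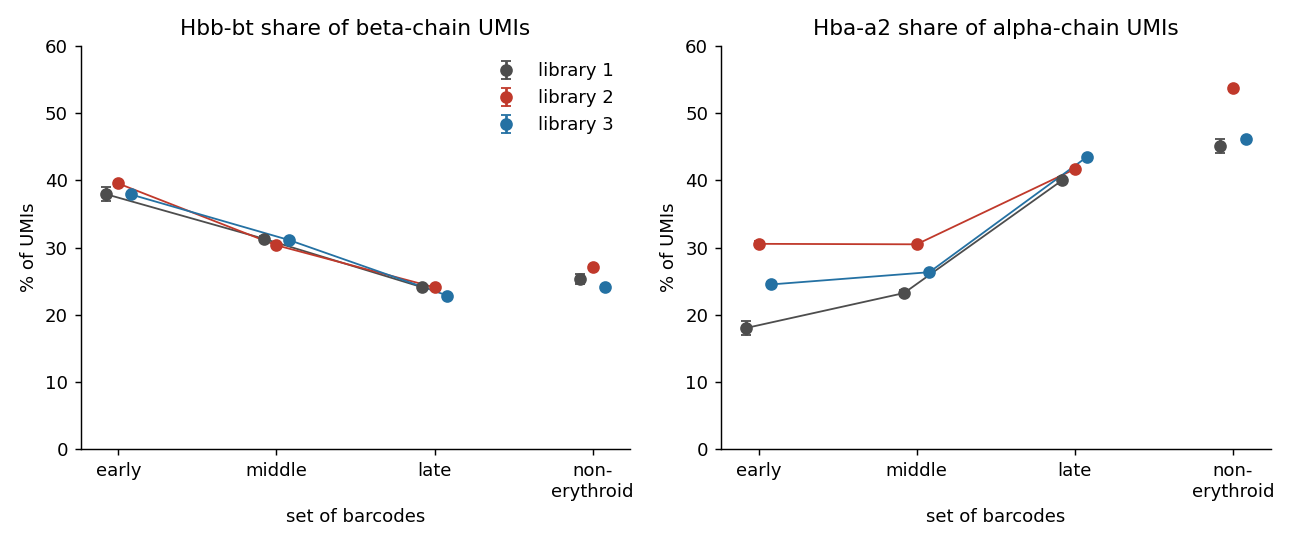
Share of beta-chain UMIs from Hbb-bt (left) and of alpha-chain UMIs from Hba-a2 (right), in % (y axis), in early, middle and late erythroid barcodes and in all non-erythroid barcodes (x axis) of each library (colour). Points are sums over barcodes and bars are exact 95% binomial intervals, mostly smaller than the point. Hbb-bt goes from about 38% to 24% and Hba-a2 goes up to between 40.01% and 43.5% in late barcodes.

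The other globin genes were near zero beside the adult ones. Hbq1b, a theta globin gene of the alpha cluster, was at 100.7, 165 and 79.3 CPM in late barcodes and at 15.4, 4.00 and 2.60 CPM in early ones. Hbq1a was at 23.2, 19.8 and 23.1 CPM late, from 6, 156 and 132 UMIs. These 2 theta genes have similar copies, so their split is uncertain. The embryonic beta gene Hbb-y had 0, 8 and 0 UMIs in late barcodes, Hbb-bh1 had 0, 2 and 0, and Hbb-bh2 had 0 in each, and the exact interval of 0 UMIs reaches 14.3, 0.469 and 0.645 CPM (a floor of 3 counts is 11.6, 0.381 and 0.524). Embryonic alpha Hba-x had 0, 1 and 1 UMIs in late barcodes, and 0, 0 and 19 in early ones.

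Genes around hemoglobin were compared per UMI of the non-member genes, and genes used for gating were left out. By that scale 13.9%, 25.0% and 24.4% of all tested genes were at least 2-fold higher in late than in early barcodes of libraries 1, 2 and 3, and 27.6%, 24.3% and 22.6% at least 2-fold lower. Of the heme synthesis enzymes 1 of 6, 7 of 7 and 4 of 7 tested were 2-fold higher and 0 were lower, with median ratios of 1.70, 3.95 and 2.14. Fech, which puts iron into the ring, was higher in each library by 4.28, 9.52 and 9.24 times. By CPM 1 of 6, 3 of 7 and 1 of 7 were 2-fold higher, and Alad, Uros and Cpox were at least 2-fold lower in library 3, at ratios of 0.195, 0.365 and 0.226 against 0.567, 1.06 and 0.659 per non-member UMI. On the CPM scale 49.9%, 53.1% and 67.9% of all tested genes were at least 2-fold lower in late barcodes.

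Of the red cell membrane and enzyme genes 5 of 8, 8 of 8 and 5 of 8 were 2-fold higher and 0 lower, with median ratios of 2.83, 7.104 and 3.24. Bpgm, which makes the bisphosphoglycerate that lowers the oxygen affinity of hemoglobin, was at 24.6, 20.3 and 19.2 CPM early and at 674, 714 and 1404 CPM late. Epb42, a membrane skeleton protein, went from 72.2, 30.7 and 31.5 CPM to 194, 276 and 132 CPM. Globin regulators were mixed: 1 of 6, 2 of 9 and 1 of 9 were higher and 1, 3 and 4 lower, with median ratios of 1.54, 1.34 and 0.509, and by CPM 1, 3 and 7 were lower. Nfe2, whose protein binds the beta locus control region, was higher by 4.19, 10.3 and 6.22 times. Bcl11a, a repressor of embryonic globin genes, was at 144, 175 and 192 CPM early and at 27.1, 17.5 and 8.56 CPM late. Myb, a factor of immature precursors, was at 56.9, 147 and 151 CPM early and at 23.2, 20.5 and 14.0 CPM late, but in library 1 its ratio per non-member UMI was 0.638, short of 2-fold.

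Markers of other cells took a larger share of the UMIs in late barcodes. The 6 macrophage markers (C1qa, C1qb, C1qc, Mrc1, Adgre1, Cd163) summed to 39.96, 37.4 and 45.6 CPM in early, 61.1, 131 and 223 CPM in middle and 1174, 258 and 1017 CPM in late barcodes, against 9899, 11017.5 and 13460 CPM in macrophage-like barcodes. All 6 had a UMI in each late set, and Mrc1 and Cd163 were at 0 in early barcodes of library 1. The 6 neutrophil markers summed to 72.2, 87.6 and 56.6 CPM early and 271, 239 and 171 CPM late, with Clec4d at 0 late in library 1. Late barcodes were shallower, so a higher CPM need not mean more UMIs per barcode. As counts, the neutrophil markers had 47, 1491 and 1499 UMIs in 35, 431 and 717 early barcodes. They had 70, 1881 and 980 UMIs in 50, 1013 and 654 late ones. The macrophage markers had 26, 636 and 1208 UMIs early and 303, 2028 and 5819 late. Of 13 heme clearance genes 3 of 6, 7 of 9 and 8 of 11 tested were at least 2-fold higher in late barcodes per non-member UMI, with median ratios of 3.16, 2.22 and 8.77, and macrophages express these genes. Hmox1, the enzyme that breaks down heme, was at 23.1, 2.88 and 4.64 CPM early and 275, 70.5 and 195 CPM late. The part of other cells' RNA in these ratios was not tested.

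Barcodes were also ordered in steps of 20% of late-list UMIs and set beside non-erythroid barcodes. Below 20%, 241 barcodes of library 2 had a median of 90 member UMIs and 0.187% of their UMIs, and 315 of library 3 had 55 UMIs and 0.126%. Non-erythroid barcodes with at least 32000 other UMIs, a like depth, had medians of 56 (quartiles 47.75 and 68.25) and 43 (36 and 53.75), so the lowest step was above the upper quartile in library 2 and just above it in library 3. From 20 to 40% the medians were 391.5 and 189 UMIs, and from 40 to 60% they were 1205 and 976 UMIs in libraries 2 and 3 and 586 in library 1. The Hba-a2 share of alpha UMIs was 42.5% and 39.5% in the lowest step of libraries 2 and 3, but 29.0% and 24.4% in the next, and 16.7% in that step of library 1. In non-erythroid barcodes it was 53.7% and 46.1%. The Hbb-bt share of beta UMIs in the lowest step, 39.98% and 35.1% in libraries 2 and 3, was above the 27.1% and 24.2% of non-erythroid barcodes, and in the next step it was 39.9% and 40.9%.

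Non-erythroid barcodes carried adult hemoglobin UMIs in all 3 libraries. They include 3698, 1340 and 2412 barcodes that were given no cell type. An Hbb-bs UMI was found in 20.7% (20.1 to 21.4) of 16649 non-erythroid barcodes of library 1, 99.5% (99.4 to 99.7) of 7326 in library 2 and 97.9% (97.6 to 98.2) of 8664 in library 3, at median depths of 5456, 5623.5 and 7195.5 UMIs. Thinned to 500 UMIs per barcode the shares were 2.76%, 51.0% and 35.6%. Barcodes with 500 to 1000 other UMIs before any thinning held an Hbb-bs UMI in 15.8%, 91.0% and 86.9%. All non-erythroid barcodes together, not thinned, held Hbb-bt in 9.99%, 92.6% and 83.2%, Hba-a1 in 13.3%, 94.1% and 86.4%, and Hba-a2 in 12.3%, 96.0% and 84.2%. No member UMI at all was found in 59.2%, 0.0819% and 0.208%. These shares count barcodes with a UMI, and whether it came from free RNA, from red cells in the same droplet or from the cell itself was not tested.

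The summed member level in non-erythroid barcodes was 165 CPM (162 to 167) in library 1, 2951 (2937 to 2965) in library 2 and 1913 (1905 to 1922) in library 3. Hbb-bs was at 75.03, 1305 and 938 CPM, Hbb-bt at 25.5, 485 and 299, Hba-a1 at 35.2, 538 and 364, and Hba-a2 at 28.9, 623 and 312. The level in library 2 was 17.9 times (17.7 to 18.2), and that in library 3 11.6 times (11.5 to 11.8), the level in library 1. All 4 members were at least 2-fold higher in library 2 than in library 1, as were 17.5% of tested genes, and all 4 in library 3 over library 1, as were 9.47%. Library 2 over library 3 was 1.54, with 0 of the 4 members at 2-fold (9.39% of genes were) and Hba-a2 just under it at 1.999. With types from clusters made without hemoglobin genes, the order of these libraries turned, at 5286 CPM in library 2 and 6513 in library 3. The libraries with more erythroid barcodes (1.10%, 20.9% and 16.7%) were those with more background, but 3 libraries give no relation to test.

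Red cell membrane and enzyme genes were also higher in the background of libraries 2 and 3. Of 8 membrane and enzyme genes, 6 (among them Sptb, Ank1, Epb42, Rhd and Car2) were at least 2-fold higher in non-erythroid barcodes of library 2 than of library 1, and also of library 3 than of library 1, with median ratios of 7.07 and 4.82. Of all tested genes, 17.5% and 9.47% were at least 2-fold higher in these comparisons. Epb42 was at 0.171, 2.55 and 1.16 CPM. Heme synthesis enzymes had 0 of 7 and 2 of 7 at 2-fold (medians 1.53 and 1.62), and globin regulators 1 of 9 and 2 of 9 (medians 0.914 and 0.960). The 12 gate markers summed to 6.87, 110 and 64.9 CPM there. Of 9 genes of other blood cells, such as S100a8 of neutrophils, 1 was higher and 2 lower in library 2 than in library 1. The higher one was Igkc, an antibody light chain gene, and the median was 0.802 (1.0% of all tested genes were lower). In library 3 over library 1, 0 were higher and 3 lower, with a median of 0.690 against 1.06 over all tested genes. The share of all genes that were lower there is not given. Non-erythroid barcodes include cells that make such genes, among them neutrophils, so these counts do not measure free RNA.

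Background UMIs followed depth only in part. In library 2 the median member count per non-erythroid barcode was 7 UMIs at 500 to 1000 other UMIs, 13 at 2000 to 4000, 25 at 8000 to 16000, and 56 from 32000 up, while the median of other UMIs went from 718 to 37508.5. In library 3 it went from 5 to 43 UMIs, and in library 1 from 0 to 2. The summed CPM therefore was lower in deeper barcodes, at 11870 CPM in the lowest and 2386 CPM in the highest depth step of library 2, and 11659 and 1697 CPM in library 3. A level in CPM between types of unlike depth carries this dependence.

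**Figure D3:**
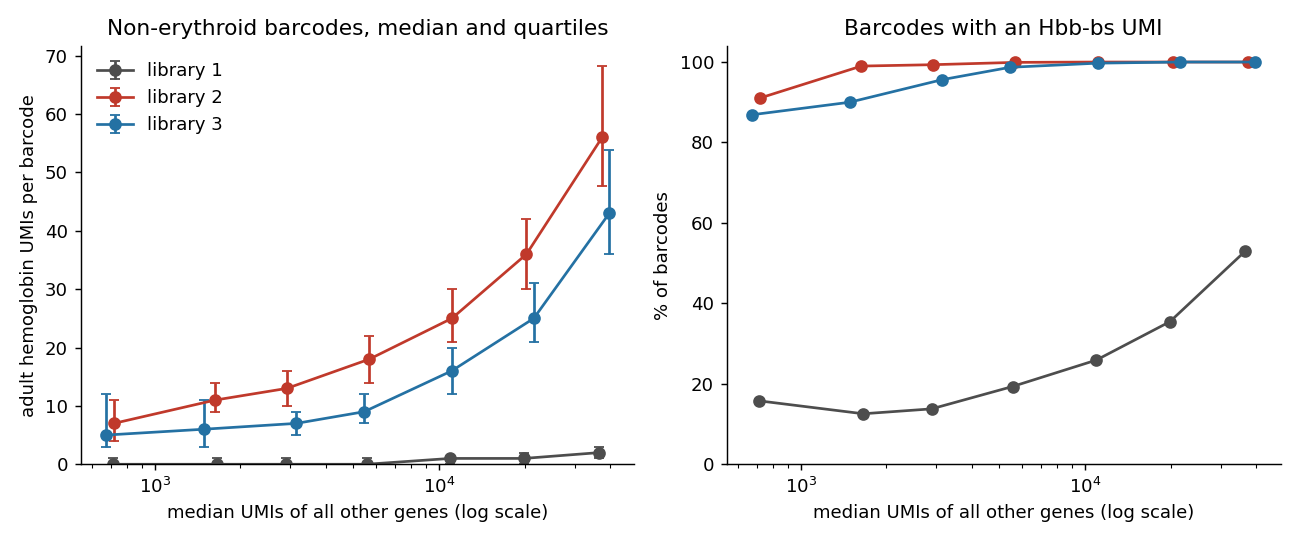
Left, adult hemoglobin UMIs per non-erythroid barcode (y axis; points are medians and bars quartiles) against the median UMIs of all other genes (x axis, log scale) in depth steps, by library (colour). Right, share of those barcodes (%) with an Hbb-bs UMI. Library 1 stays at 0 to 2 UMIs, and libraries 2 and 3 reach 56 and 43.

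Single barcodes ranged far above the median background. The largest member count of a non-erythroid barcode was 2305, 3677 and 5500 UMIs, against medians of 0, 18 and 13. In libraries 1 and 3 that barcode had no cell type. Barcodes with over 10% of their UMIs from the members numbered 1, 5 and 8 and held 5.41%, 5.67% and 13.7% of the background UMIs, and doublet calling marked 0% of them. Without them the level was 156, 2786 and 1653 CPM.

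Across the 13 types with at least 50 barcodes in each library, the background was lower in library 1 than in libraries 2 and 3 in each type. Library 1 ranged from 71.0 CPM in basophil- or mast-like barcodes to 1624 in macrophage-like ones, with a median of 99.4. Library 2 ranged from 2171 CPM in fibrocyte-like to 4857 in pro-B- or pre-B-like barcodes, with a median of 3125. The highest type of library 2 rests on a few barcodes: without the 3 of 81 with over 1% hemoglobin, its level was 2262 CPM. Library 3 ranged from 1240 CPM in fibrocyte-like to 9895 in macrophage-like barcodes, with a median of 1661. Except for macrophages, the types of library 3 lay between 1240 and 1878 CPM. Depth differed between the types: neutrophil-like barcodes, at 4315 CPM in library 2, had a median depth of 2970 UMIs, and progenitors of granulocytes and monocytes, at 2221 CPM, one of 14286.

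Macrophage-like barcodes stood apart in libraries 1 and 3. These cells clear aged red cells and the nuclei that erythroblasts shed. Over 1% hemoglobin was found in 10 of 239 (4.18%), 26 of 223 (11.7%) and 56 of 314 (17.8%) of them, against 0.142%, 2.03% and 2.12% of the other gated types. Their medians were 0, 25 and 20 member UMIs at depths of 3206, 6624 and 6887, against 0, 18 and 12 in the other types at 5394, 5351 and 6882. Without the barcodes over 1% their level was 635, 3298 and 3404 CPM, against 95.9, 2564 and 1364 in the other types treated alike. They thus stayed above the pool of other types without that tail, but in library 2 neutrophil-like (3918) and mature B-like (3736) barcodes were higher still.

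Erythroid markers were also higher in macrophage-like barcodes, at 39.2, 164 and 148 CPM for the 12 summed, against 6.73, 107 and 65.7 CPM in the pool of other types. Basophil- or mast-like barcodes had more in libraries 1 and 3, at 40.6 and 189 CPM, but with only 1.75 and 8.02 hemoglobin UMIs per marker UMI. Hemoglobin UMIs per marker UMI were 41.4, 28.3 and 67.1 in macrophage-like and 20.1, 27.3 and 25.6 in other barcodes, and 63.1, 65.9 and 138 in late erythroid ones. The gate caps marker UMIs in non-erythroid barcodes and sets a minimum in erythroid ones, so these ratios partly follow from it. Vcam1, an adhesion protein of macrophages that hold erythroblasts, is outside the lists and was chosen after its values were seen. Barcodes with a Vcam1 UMI (139, 126 and 229) had 2516, 5274 and 12046.5 CPM of hemoglobin, and those without (100, 97 and 85) had 139, 3756 and 2162. The medians were 1, 27 and 25 UMIs with Vcam1 and 0, 23 and 11 without, at depths of 3263, 6548 and 7283 against 3151.5, 6677 and 6058. Doublet calls marked 5, 1 and 7 macrophage-like barcodes. The part of erythroid cells in the same droplet was not tested.

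**Figure D4:**
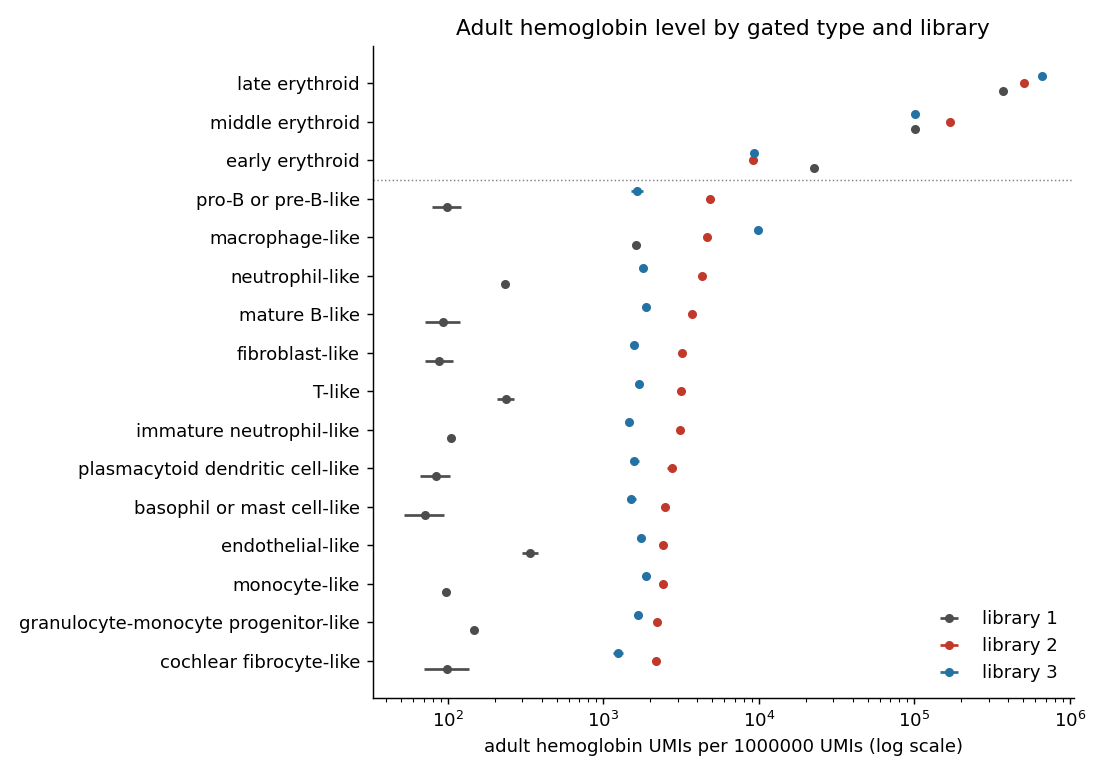
Adult hemoglobin UMIs per 1000000 UMIs (x axis, log scale) summed over the barcodes of each gated type and erythroid stage (y axis) in libraries 1, 2 and 3 (colour), with exact 95% Poisson intervals. Below the dotted line, library 1 lies under libraries 2 and 3 in every type, and macrophage-like barcodes are the highest of libraries 1 and 3, at 1624 and 9895.

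The make-up of the background was close to that of late erythroid barcodes for beta and less so for alpha. Hbb-bt gave 25.3% (24.6 to 26.1), 27.1% (26.8 to 27.3) and 24.2% (23.9 to 24.4) of beta UMIs in non-erythroid barcodes, against 24.1%, 24.1% and 22.9% in late and 38.0%, 39.5% and 37.9% in early ones. Middle barcodes had 31.3%, 30.3% and 31.1%, so the background of library 2 lay about midway between late and middle. Hba-a2 gave 45.1%, 53.7% and 46.1% of alpha UMIs, above the late 40.01%, 41.7% and 43.5%. In library 2 each of the 13 types was above the late value, with the lowest at 46.9%. Barcodes with at least 80% hemoglobin had 45.9% in library 2 and 43.9% in library 3, so the background share of library 2 was above that set as well. The ratio of beta to alpha UMIs was 1.57, 1.54 and 1.83 in the background. Macrophage-like barcodes had the lowest Hba-a2 share of the 13 types in libraries 1 and 3, 37.0% (33.1 to 41.0) and 42.2%, near the late values. In library 2 they had 53.0%, well above the late 41.7% and near the other types.

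Relative to the late level, the background of the members was small. Non-erythroid CPM was 0.0416% to 0.0531% of late CPM in library 1, 0.505% to 0.820% in library 2 and 0.268% to 0.312% in library 3. For the other 47, 94 and 33 genes with at least 100 CPM late, at least 50 UMIs in both sets and a late level at least 10-fold higher, the median was 3.17%, 4.21% and 3.70%. The minimum of 50 UMIs keeps genes of very low background out of that median. Hbq1b, on the other hand, was at 0.0385%, 0.581% and 0.243%, alongside the members. Alas2 was close to them as well, at 0.0601%, 0.844% and 0.359%, but it is a gate marker, which the gate limits in non-erythroid barcodes.

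Among 8125 genes, the 10 whose log level over the 15 types and stages of the 3 libraries (45 points) was most like the summed members included Slc4a1, the anion exchanger of the red cell membrane (Pearson r 0.918), Alas2, the first enzyme of heme synthesis (0.910), Apol11b (0.891), Tspan33 (0.885), Tspo2 (0.880), Epb42 (0.868), Rhd (0.865) and Ermap (0.862). Slc4a1, Alas2, Tspo2 and Ermap are gate markers, so their place follows from the gate. The members' own pairs had r between 0.993 and 0.998. Early barcodes, 35 in library 1, fell under the minimum of 50 barcodes per library and were not among the points. The points share libraries and free RNA, and no test was made.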

How the data were processed

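Raw UMI counts per gene and barcode were used as the authors deposited them, made with Cell Ranger 7.1.0 per the file headers, on GRCm39 per the submitters' processing notes. Handling of reads that map to more than 1 place is not given in the sources used here. Barcodes were filtered (500 UMIs, 200 genes, 20% mitochondrial), and a type needed at least 3 of 6 markers, more than any other type. Gate and stage limits were set after the marker distributions were seen, without reading the members; the members and lists were chosen with earlier results of these data known. Named genes are the members, the lists given and the 10 most like the members (log2 of CPM plus 10, genes reaching 50 CPM); some of them are not reported here. CPM, shares and exact 95% intervals were computed with numpy 2.4.6 and scipy 1.17.1. Doublets were called per library in scanpy 1.11.5 (scrublet, expected rate 6%) and kept. A fold call needed 2-fold and 50 summed UMIs, with a floor of 3 counts; it was tested on simulated data. Alternatives were doublets, minima, thinning, scale, background subtraction and clusters (2000 variable genes, 30 components, hemoglobin genes left out). Sequences were aligned with Biopython 1.88.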

Additional observations from a re-analysis of the deposited data

Results flagged for a closer look

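Barcodes that the filters left out were looked at for adult hemoglobin, since the stages and types above do not include them. Those with under 200 genes numbered 387, 185 and 38 in libraries 1, 2 and 3, and the members took 4.00%, 73.5% and 26.2% of their UMIs, above the 0.209%, 6.48% and 3.63% of the kept barcodes. In library 2, 113 of the 185 had at least 50% hemoglobin and 61 had at least 90%, with a highest value of 94.8%. The gene minimum thus removed barcodes with a hemoglobin share as high as that of late erythroid ones. Barcodes over the mitochondrial maximum numbered 450, 241 and 603 and had 0.493%, 1.63% and 0.764%. These lay above the kept share in library 1 and below it in libraries 2 and 3, and above the non-erythroid level of 165, 2951 and 1913 CPM in each.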

How the results depend on the processing

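Of 75 alternative values, 24 stayed within the counting interval of the reported one and 51 left it, 20 of these by over 1.5 times; values are for libraries 1, 2 and 3 unless named, and the cause was not tested. The non-erythroid level was 531, 5286 and 6513 CPM with types from clusters made without hemoglobin genes, 413, 7734 and 4255 with the mixed and shallow barcodes added (chosen after seeing the data), and 101 and 1545 in libraries 1 and 3 without barcodes holding any erythroid marker UMI. It was 172 in library 1 without called doublets, 0.0, 3025 and 1484 as a median over barcodes, and 2934 and 1892 in libraries 2 and 3 with at least 1000 UMIs. Library 2 stayed above library 3 in all of these except the clusters, and library 1 was lowest in each. The Hbb-bs share was 2.76%, 51.0% and 35.6% thinned to 500 UMIs, 20.01%, 99.2% and 97.2% without barcodes with an erythroid marker, and 99.7% and 98.3% in libraries 2 and 3 with at least 1000 UMIs. The late share was 37.1%, 54.3% and 68.3% without doublets, 34.9%, 56.1% and 84.4% as a median, and 49.1%, 63.6% and 72.1% with stages at 40% and 90% (chosen after seeing the data); it was 39.0% and 51.1% in libraries 1 and 2 with no gene minimum, and 50.9% in library 2 with at least 1000 UMIs. The late to early ratio was 14.7, 62.4 and 71.5 without doublets, 25.9, 112 and 207 per non-member UMI, 42.4, 97.8 and 148 with the other stages, and 81.3 and 89.2 in libraries 2 and 3 with background subtracted. The Hbb-bt share was 38.0%, 39.5% and 37.9% in early and 25.3%, 27.1% and 24.2% in non-erythroid barcodes (the second chosen after seeing the data). Thinning takes hemoglobin and other UMIs of a barcode in proportion, but background followed depth only in part. Non-erythroid barcodes with 500 to 1000 other UMIs held an Hbb-bs UMI in 15.8%, 91.0% and 86.9% without thinning, above the thinned shares. The early values of library 1 rest on 35 barcodes. No paired analysis was possible because each group has 1 library and no test was made, and leaving out a replicate would leave a group empty.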
